A study of Mus musculus with 36 samples.

Results

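The negative limb of the circadian clock is the set of genes whose proteins switch off the activators that drive them. It was followed here as 8 genes, Per1, Per2, Per3, Cry1, Cry2, Ciart, Bhlhe40 and Bhlhe41, and every array probe whose gene name in the scanner files was one of these was included. They were read by 17 of the 56605 probes of the array design. Of these, 14 could be fitted on all arrays, and all 8 genes were among the 23054 genes tested.

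RNA came from whole livers of male mice on a C57BL/6J background, 11 weeks old, fed chow without restriction under 12 h of light and 12 h of dark, with no other treatment given in the labels. Mice labelled IRLKO, called knockouts here, have LoxP sites around exon 4 of the insulin receptor gene Insr and a tamoxifen-inducible Cre under the transthyretin promoter (TTR-CreTam), which acts in hepatocytes and leaves Insr intact in the other liver cells. Mice labelled IRLWT are called controls. The time of the tamoxifen treatment is not in the labels, nor is whether controls carried Cre. Zeitgeber time (ZT) counts hours from lights-on, and darkness began at ZT12. Livers of both genotypes were taken at ZT8, ZT12 or ZT16, which makes 6 groups of 6 arrays.

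In the clock, CLOCK and its partner BMAL1 (gene Arntl) bind E-box sequences and raise transcription of the Per, Cry, Ciart and Bhlhe genes. PER and CRY proteins then form a complex that blocks CLOCK and BMAL1, and CIART, BHLHE40 and BHLHE41 repress them as well, so that the loop turns once a day. In the liver this clock gates metabolism, and feeding, insulin, glucocorticoids and body temperature are known signals that set it, with Per1 and Per2 as targets of several of them.

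The promoters of these genes are shown because E-boxes and D-boxes, the latter bound by DBP, TEF, HLF and NFIL3, are the elements through which the loop closes. RefSeq promoter windows on GRCm38.p6, from 250 bases before to 50 after the start site, were at hand for 6 of the 8 genes, in 7 windows, since Per1 has a second start. Each line gives 1 stretch before the start site, 5′ to 3′ on the strand of the gene, with motif matches in capitals.
Per1 (chr11:69098758-69098813, + strand, E-box): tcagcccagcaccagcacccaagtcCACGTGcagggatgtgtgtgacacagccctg
Per3 (chr4:151044791-151044895, − strand, D-box at 2 places): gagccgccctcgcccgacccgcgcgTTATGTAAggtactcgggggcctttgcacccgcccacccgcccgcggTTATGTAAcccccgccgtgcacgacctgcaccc
Cry1 (chr10:85185084-85185158, − strand, E′-box then E-box): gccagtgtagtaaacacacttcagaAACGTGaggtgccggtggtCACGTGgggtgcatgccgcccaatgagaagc
Cry2 (chr2:92434205-92434260, − strand, E′-box): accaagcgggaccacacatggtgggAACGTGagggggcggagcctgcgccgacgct
Ciart (chr3:95882242-95882369, − strand, E-box at 3 places): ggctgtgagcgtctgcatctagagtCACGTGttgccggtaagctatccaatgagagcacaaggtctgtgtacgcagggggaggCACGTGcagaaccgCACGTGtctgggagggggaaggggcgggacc
Bhlhe41 (chr6:145865543-145865598, − strand, E-box): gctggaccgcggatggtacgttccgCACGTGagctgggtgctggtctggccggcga

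The E-box searched was CACGTG, which 7.15% of all 32851 promoter windows of 300 bases hold on either strand, and the E′-box was CACGTT, held by 4.68%. Ciart held the E-box at 3 places, with first bases at −116, −58 and −44 from the start site, and 0.0883% of all windows hold at least 3. The D-box was TTATGTAA or TTACGTAA, held by 1.06% of windows, and 0.0244% hold at least 2, as Per3 does at −205 and −158. Cry1 held its E′-box at −79 and its E-box at −60. No match overlapped another motif. The cAMP response element TGACGTCA (1.79% of windows) and the RORE (0.773%) had no match in these windows, which says only that those letters are not there.

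Insr, the targeted gene, was lower in all 6 knockouts than in every control at each time, at 29.3%, 27.2% and 31.8% of the control level at ZT8, ZT12 and ZT16 (adjusted p = 1.18e-11, 2.16e-12 and 2.87e-11), which checks the genotype labels. On each array 53.7% to 63.1% of spots were well above background, and the 75th percentile signal ranged from 311 to 525 intensity units. Values below are log2 of the signal relative to that percentile of the same array, so 0 is the 75th percentile, and levels are not set against each other between genes. Knockout ZT8 replicate 3 stood apart. Its median correlation with its group was 0.972, against 0.984 to 0.992 for the other arrays, and it had the lowest value of its group for 5 of the 8 genes, as control ZT12 replicate 5 did in its own group. The ZT8 ratios are given with and without knockout ZT8 replicate 3.

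Of the 7 genes of the negative limb other than Bhlhe41, 2, 4 and 7 were called lower in knockouts than in controls at ZT8, ZT12 and ZT16, and none was called higher. Bhlhe41 is counted apart, a choice made after seeing the data, because its probe was well above background in the ZT8 controls alone and was tested only through that group. A gene was called when its limma p, adjusted over all genes tested (Benjamini-Hochberg), was under 0.05. At ZT8 the called genes were Ciart and Bhlhe40, and with Bhlhe41 there were 3 of 8, where 18.7% of all genes were called lower and 35.4% were called in either direction. At ZT12 they were Per2, Per3, Ciart and Bhlhe40 (22.6% of all genes called lower, 42.2% in either direction), and at ZT16 all 7 (20.0% and 39.9%). The median log2 ratio over the 7 genes was −0.15, −0.75 and −1.81 at ZT8, ZT12 and ZT16, and over all 8 it was −0.16, −0.48 and −1.40, beside 0.007, −0.017 and 0.003 over all genes, and the medians over all 8 were the same with ratios that are only bounds set at their bounds. With Bhlhe41, each of the 3 counts was the same without knockout ZT8 replicate 3. In bulk liver RNA, fewer cells of a type and less RNA per cell cannot be told apart.

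**Figure D1:**
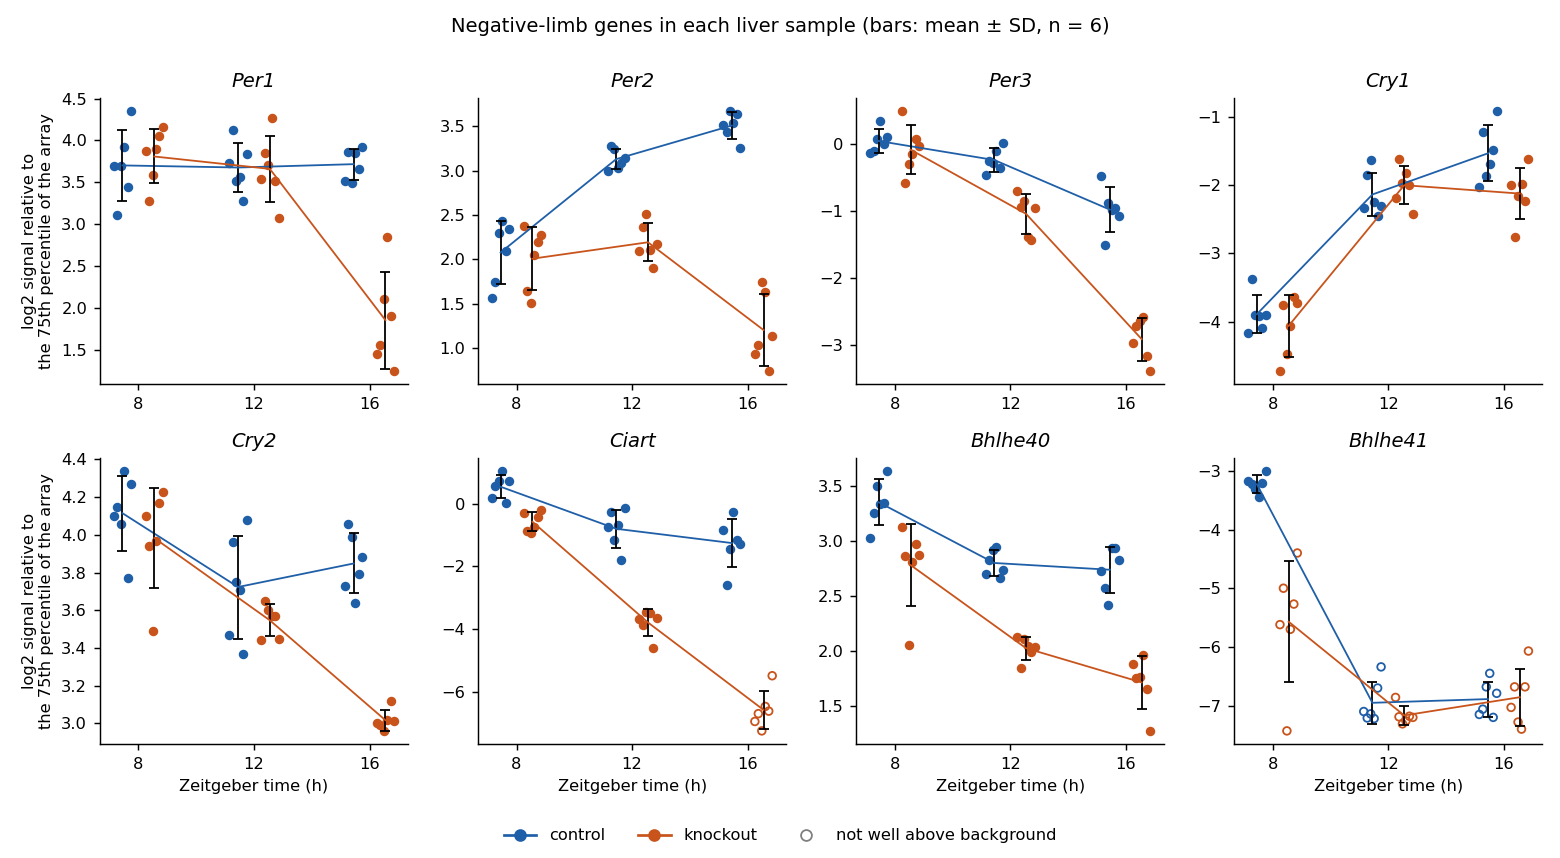
Vertical axis: log2 of the signal over the array's own 75th percentile, for the 8 genes at ZT8, ZT12 and ZT16 (horizontal axis, h). Each point is 1 array, with controls to the left in blue and knockouts to the right in orange. Bars give mean ± SD of 6 arrays, lines join the means, and open points mark a probe not well above background. At ZT16 the knockouts lie below all controls for Per1, Per2, Per3, Cry2, Ciart and Bhlhe40, overlap them for Cry1, and for Bhlhe41 neither genotype is above background. Of all genes, 19.2% do not overlap between the genotypes at ZT16.

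**Figure D2:**
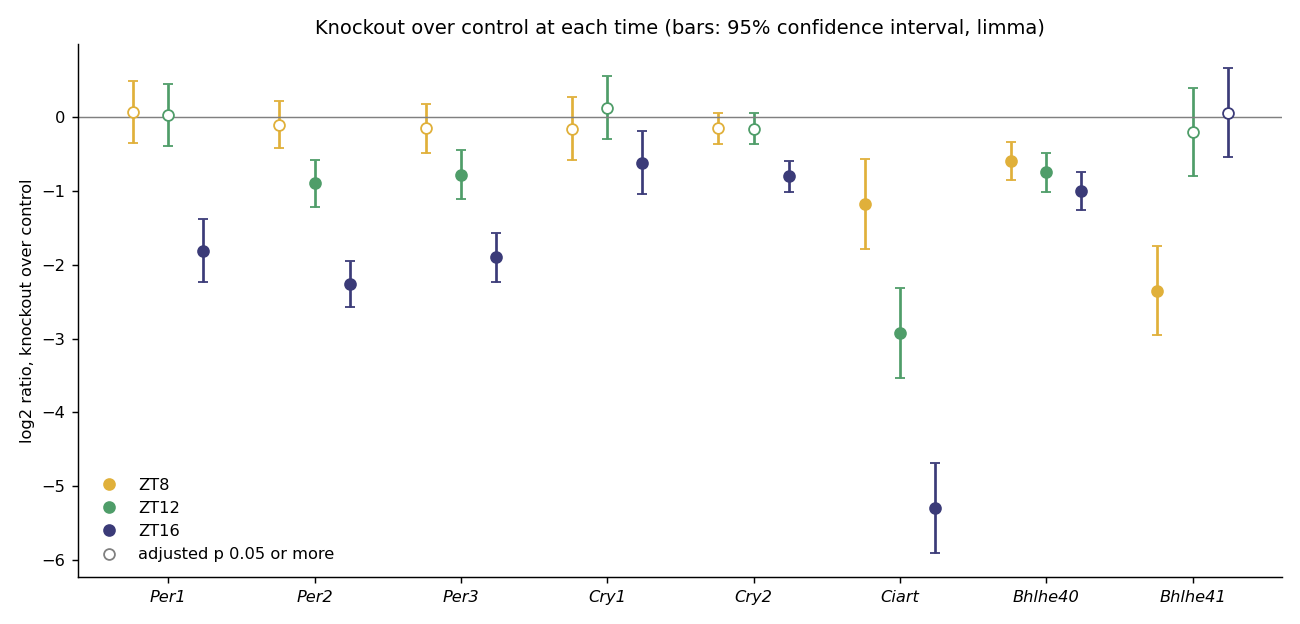
Log2 ratio of knockout over control (vertical axis) for each gene at ZT8, ZT12 and ZT16, with limma 95% confidence intervals and filled points where the adjusted p was under 0.05. The ratios of Per2, Per3 and Ciart are lower at each later time, that of Bhlhe40 is below 0 throughout, and that of Bhlhe41 is below 0 at ZT8; the Ciart ratio at ZT16 and the Bhlhe41 ratios rest on signals below background.

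The PERIOD genes encode the scaffold proteins of the repressor complex, whose rise and phosphorylation time the loop. Per1, also an early responder to hormonal and cAMP signals, was read at chr11:68923364-68923423 (mm9, + strand). Controls held it level, with a lowest, median and highest value of 3.11, 3.70 and 4.35 at ZT8, 3.28, 3.64 and 4.13 at ZT12, and 3.49, 3.75 and 3.92 at ZT16. Knockouts were at 3.28, 3.88 and 4.16 at ZT8 and at 3.07, 3.63 and 4.27 at ZT12, overlapping the controls at both times. At ZT16 they were at 1.24, 1.73 and 2.85, and the highest knockout lay below the lowest control. Knockout over control, the log2 ratio came to 0.07 ± 0.21 (SE) at ZT8, then 0.02 ± 0.21 at ZT12, then −1.81 ± 0.21 at ZT16 (adjusted p = 0.835, 0.937 and 3.42e-08), so that at ZT16 the knockouts held 28.6% of the control level. The 95% intervals at ZT8 (−0.35 to 0.49) and ZT12 (−0.40 to 0.45) bound what these arrays could have missed. Wash batches 1, 2 and 3 hold 1 to 3 arrays per group. Within them the ZT12 difference of Per1 was −0.01, 0.48 and −0.92, and at ZT16 it was −2.24, −1.83 and −1.59.

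Per2, which carries the same scaffold role and is also a direct target of glucocorticoid and temperature signals, was read at chr1:93312595-93312654 (mm9, − strand). In controls it was at 1.56, 2.20 and 2.43 (lowest, median, highest) at ZT8, at 3.00, 3.12 and 3.28 at ZT12 and at 3.25, 3.53 and 3.67 at ZT16. In knockouts it was at 1.51, 2.13 and 2.38 at ZT8, at 1.90, 2.14 and 2.51 at ZT12, and at 0.74, 1.09 and 1.75 at ZT16. The genotypes overlapped at ZT8 and did not overlap at the later times (exact permutation p = 0.00216 at each, two-sided, the smallest that 6 against 6 can give). The log2 ratio of Per2 came to −0.11 ± 0.16 (ZT8), −0.90 ± 0.16 (ZT12) and −2.26 ± 0.16 (ZT16) (adjusted p = 0.642, 2.5e-05 and 1.22e-12), which left 53.5% and 20.8% of the control level at ZT12 and ZT16. Without knockout ZT8 replicate 3 the ZT8 ratios of Per1, Per2 and Per3 were 0.07, −0.02 and −0.13, none called. For Per2, the control median was highest at ZT16 and the knockout median was lowest there. The control step from ZT12 to ZT16 was not called (0.34 ± 0.16, adjusted p = 0.269).

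Per3, whose protein joins the complex but is the least needed of the family for rhythm, was read by its representative probe at chr4:150378473-150378532 (mm9, − strand). Controls went from a median of 0.04 (−0.14 to 0.34) at ZT8 to −0.26 (−0.46 to 0.02) at ZT12 and −0.97 (−1.51 to −0.47) at ZT16. Knockouts went from −0.09 (−0.58 to 0.49) to −0.94 (−1.43 to −0.70) and −2.84 (−3.39 to −2.58). The groups overlapped at ZT8 and separated at ZT12 and ZT16. Per3 had log2 ratios of −0.15 ± 0.16, −0.78 ± 0.16 and −1.90 ± 0.16 (adjusted p = 0.496, 0.000262 and 1.14e-10), with 26.7% of the control level left at ZT16. With normexp background correction the ZT16 ratio was −1.25 and was still called. A brighter Per3 probe, fitted without knockout ZT12 replicate 1, was called lower at ZT8 as well (−0.93, adjusted p = 0.000489).

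The CRYPTOCHROME genes encode the subunits that bind CLOCK and BMAL1 and do most of the repressing. Cry1, the late-phase repressor, was read at chr10:84647094-84647153 (mm9, − strand). Controls were at −4.17, −3.91 and −3.37 (lowest, median, highest) at ZT8, at −2.45, −2.27 and −1.63 at ZT12, and at −2.02, −1.58 and −0.91 at ZT16. Knockouts were at −4.73, −3.91 and −3.64, at −2.42, −1.97 and −1.61, and at −2.76, −2.07 and −1.61. The ranges overlapped at every time, and at ZT16 3 of 6 knockouts lay below the lowest control. Cry1 had log2 ratios of −0.16 ± 0.21 (ZT8), 0.12 ± 0.21 (ZT12) and −0.62 ± 0.21 (ZT16) (adjusted p = 0.592, 0.668 and 0.0183, exact permutation p = 0.026 at ZT16). The ZT16 call was lost without control replicate 6 of that time (−0.49, adjusted p = 0.0737) and without knockout replicate 2 of that time (−0.49, adjusted p = 0.0739).

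Cry2, which is the less strongly cycling cryptochrome, was read at chr2:92243807-92243866 (mm9, − strand). Controls had medians of 4.12 (3.77 to 4.34), 3.73 (3.37 to 4.08) and 3.83 (3.64 to 4.06) at ZT8, ZT12 and ZT16. Knockouts had medians of 4.03 (3.49 to 4.23), 3.57 (3.44 to 3.65) and 3.00 (2.96 to 3.12). At ZT16 all 6 knockouts lay below every control, and their spread was narrow, with an SD of 0.06. Cry2 had log2 ratios of −0.15 ± 0.10, −0.16 ± 0.10 and −0.80 ± 0.10 (adjusted p = 0.28, 0.222 and 3.2e-07), which is 57.5% of the control level at ZT16. Without knockout ZT8 replicate 3 the ZT8 ratio was −0.07 for Cry2 and −0.05 for Cry1, neither called.

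Ciart, also known as Chrono, encodes a repressor that binds CLOCK and BMAL1 without the PER proteins, and it is the member with the E-box at 3 places in its promoter shown above. Its probe lies at chr3:95682433-95682492 (mm9, − strand). Controls were at 0.03, 0.63 and 1.05 (lowest, median, highest) at ZT8, at −1.81, −0.70 and −0.14 at ZT12, and at −2.58, −1.21 and −0.25 at ZT16. Knockouts were at −0.93, −0.58 and −0.19 at ZT8 and at −4.59, −3.66 and −3.46 at ZT12. At ZT16 the probe was well above background in all 6 controls and in 0 of 6 knockouts, whose values ran from −7.25 to −5.49. The genotypes did not overlap at any of the 3 times, which held for 15.5%, 21.3% and 19.2% of all genes at ZT8, ZT12 and ZT16.

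The log2 ratio of Ciart was −1.18 ± 0.30 at ZT8 and −2.93 ± 0.30 at ZT12 (adjusted p = 0.00249 and 4.24e-09), which is 44.1% and 13.2% of the control level. At ZT16 the knockouts were at least 13.9-fold lower than controls as processed here. The limma adjusted p of 2.02e-14 is that of the fitted difference and not of this bound. The bound sets the control mean of −1.25 against the lowest signal well above background, −5.05, since the knockout mean of −6.58 is not a measured level. Lower-bound ratios of this kind use, on each array, the higher of that lowest signal and the signal of the probe. Without knockout ZT8 replicate 3 the ZT8 ratio was −1.12 (adjusted p = 0.00658). Sizes at these dim signals moved with background correction. Normexp gave −0.99, −1.69 and −1.83 at ZT8, ZT12 and ZT16. The authors' deposited table gave −1.04, −2.09 and −2.61, and every one of these ratios was called. These ZT16 ratios are smaller than the 13.9-fold bound, which therefore holds only for the processing used here.

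Bhlhe40 (DEC1) and Bhlhe41 (DEC2) encode basic helix-loop-helix repressors that compete with CLOCK and BMAL1 for E-boxes. Bhlhe40, which also responds to feeding and hypoxia, was read at chr6:108616309-108616368 (mm9, + strand). Controls were at 3.03, 3.35 and 3.64 (lowest, median, highest) at ZT8, at 2.66, 2.79 and 2.95 at ZT12 and at 2.42, 2.78 and 2.94 at ZT16. Knockouts were at 2.05, 2.87 and 3.13, at 1.84, 2.04 and 2.13, and at 1.27, 1.76 and 1.96. At ZT8, 5 of 6 knockouts lay below the lowest control, and at the later times all 6 did. Bhlhe40 had log2 ratios of −0.60 ± 0.13, −0.75 ± 0.13 and −1.0 ± 0.13 (adjusted p = 0.000457, 1.91e-05 and 2.45e-07), so that the knockouts held 66.2%, 59.4% and 50.1% of the control level. The value of 2.05 at ZT8 is that of knockout ZT8 replicate 3, and without it the ZT8 ratio was −0.45 (adjusted p = 0.00141).

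Bhlhe41 was read at chr6:145806764-145806823 (mm9, − strand) and was well above background in the ZT8 controls alone, on 6 of 6 arrays there and on 0 of the other 30. It passed the filter through that group, so a difference at ZT8 was built into its being tested. The ZT8 controls lay between −3.45 and −3.00, and the ZT8 knockouts between −7.43 and −4.40. As a description, knockouts were at least 3.55-fold lower at ZT8 (control mean −3.23, lowest measurable −5.06, knockout mean −5.57). The size depended on the processing, since the ZT8 log2 difference of Bhlhe41 was −2.35 as fitted, −0.58 with normexp and −0.92 in the authors' deposited table, and these last are smaller than that bound. The lowest knockout value is that of knockout ZT8 replicate 3, and without it the fitted difference was −1.96. At ZT12 and ZT16 neither genotype was above background, and no difference between them can be read. The other probe, at chr6:145812652-145812711, was above background on 5 arrays, all ZT8 controls, and was not fitted.

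Whether the effect of the knockout changed between the times was tested as such. The F test over the 3 times called 5 of the 7 genes other than Bhlhe41, and 6 of 8 with it, where 8.46% of all genes were called. From ZT8 to ZT16 the log2 ratio moved by −1.87 ± 0.29 for Per1, −2.16 ± 0.22 for Per2, −1.75 ± 0.23 for Per3 and −0.65 ± 0.15 for Cry2 (adjusted p = 9.85e-05, 3.23e-07, 8.58e-06 and 0.00371), and Ciart was called in the same direction (adjusted p = 3.37e-07). Bhlhe41 was called the other way, but it passed the filter through the ZT8 controls alone, so this call was built into its being tested. Of the 7 other genes, 5 were called lower and 0 higher for this difference, beside 4.32% and 5.44% of all genes (9.75% in either direction). Cry1 (−0.46, 95% interval −1.06 to 0.14, adjusted p = 0.385) and Bhlhe40 (−0.40, −0.77 to −0.03, adjusted p = 0.17) were not called. Without knockout ZT8 replicate 3, Bhlhe40 was called (−0.56, adjusted p = 0.0112), and with the mean of all its probes Cry2 was not (−0.52, adjusted p = 0.0768). The Ciart change was −0.84 with normexp (adjusted p = 0.0283) and −1.57 in the authors' deposited table (adjusted p = 0.000724).

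The shift was also tested for each interval. Between ZT12 and ZT16 the effect was called to change for 5 genes, all lower (0.855% of all genes called lower, 1.95% in either direction). The change was −1.83 ± 0.29 for Per1, −1.36 ± 0.22 for Per2, −1.12 ± 0.23 for Per3 and −0.64 ± 0.15 for Cry2. Ciart was the fifth, but its ZT16 knockouts were not above background, so its change is not a measured size. With normexp its ratio was −1.69 at ZT12 and −1.83 at ZT16, and in the authors' deposited table −2.09 and −2.61. Between ZT8 and ZT12 a change of the effect was called for 1 of the 7 genes other than Bhlhe41 (1.25% of all genes). It was Ciart at −1.75 ± 0.43 (adjusted p = 0.0348). Bhlhe41 was called too, but it was below background at ZT12 in both genotypes. It passed the filter through the ZT8 controls alone, so its call was built into its being tested. With Bhlhe41 the count was 2, and that count was 0 with normexp background correction and 1 without any of 12 single arrays. Per1 moved by −0.04 ± 0.29 over that interval (adjusted p = 0.972).

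Seen within each genotype, the day courses differed as follows. Of the 7 genes other than Bhlhe41, 6 were called between ZT8 and ZT16 in controls (26.6% of all genes) and 7 in knockouts (28.9%). Bhlhe41 was called in both, but in knockouts its signals were below background at every time, so that no change can be read there. Per2 rose by 1.39 ± 0.16 on the log2 scale in controls and fell by 0.77 ± 0.16 in knockouts. Per1 differed by −0.04 ± 0.21 in controls and fell by 1.92 ± 0.21 in knockouts. Per3 fell in both genotypes, by 1.05 ± 0.16 in controls and 2.80 ± 0.16 in knockouts. Cry1 rose in both, by 2.39 ± 0.21 and 1.93 ± 0.21. Cry2 fell by 0.30 ± 0.10 and 0.95 ± 0.10, Bhlhe40 by 0.64 ± 0.13 and 1.04 ± 0.13. Ciart fell by 1.83 ± 0.30 in controls and to below background in knockouts, and Bhlhe41 fell to below background in controls. These comparisons share the same samples with those above. They use the representative probe of each gene, and other probes did not all give the same change. The other Cry2 probes changed by 0.17 and 0.26 in controls and by −0.36 and −0.11 in knockouts, none called. The other Per2 probe changed by 0.52 in controls (called) and by −0.23 in knockouts (adjusted p = 0.252). The other Ciart probe changed by −0.82 in controls (adjusted p = 0.0653).

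The order of the 3 time means was not the same in both genotypes for several genes. Per2 had its highest mean at ZT16 in controls and at ZT12 in knockouts, and Cry1 likewise, although for Cry1 the knockout means at ZT12 and ZT16 did not differ beyond their spread (−0.11 ± 0.21, adjusted p = 0.847). In controls the step from ZT12 to ZT16 was not called for Per2 (0.34 ± 0.16, adjusted p = 0.269) or for Cry1 (0.63 ± 0.21, adjusted p = 0.0888). Per1 means in controls spanned 0.04 log2 units, so that no time stood apart, against 1.95 in knockouts. From ZT12 to ZT16, 1 gene was called in controls, Per3 (3.62% of all genes), and 5 were called in knockouts (12.6%), all lower (5.53% of all genes called lower). From ZT8 to ZT12, 5 of the 7 genes other than Bhlhe41 were called in each genotype (14.8% of all genes in controls, 13.2% in knockouts). Cry1 was higher at ZT12 in both genotypes, by 1.76 ± 0.21 in controls and 2.04 ± 0.21 in knockouts. Per2 was higher at ZT12 in controls alone among the called values (1.05 ± 0.15), with 0.26 ± 0.16 in knockouts (adjusted p = 0.336), and the test of that difference gave −0.80 ± 0.22 (adjusted p = 0.0694).

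**Figure D3:**
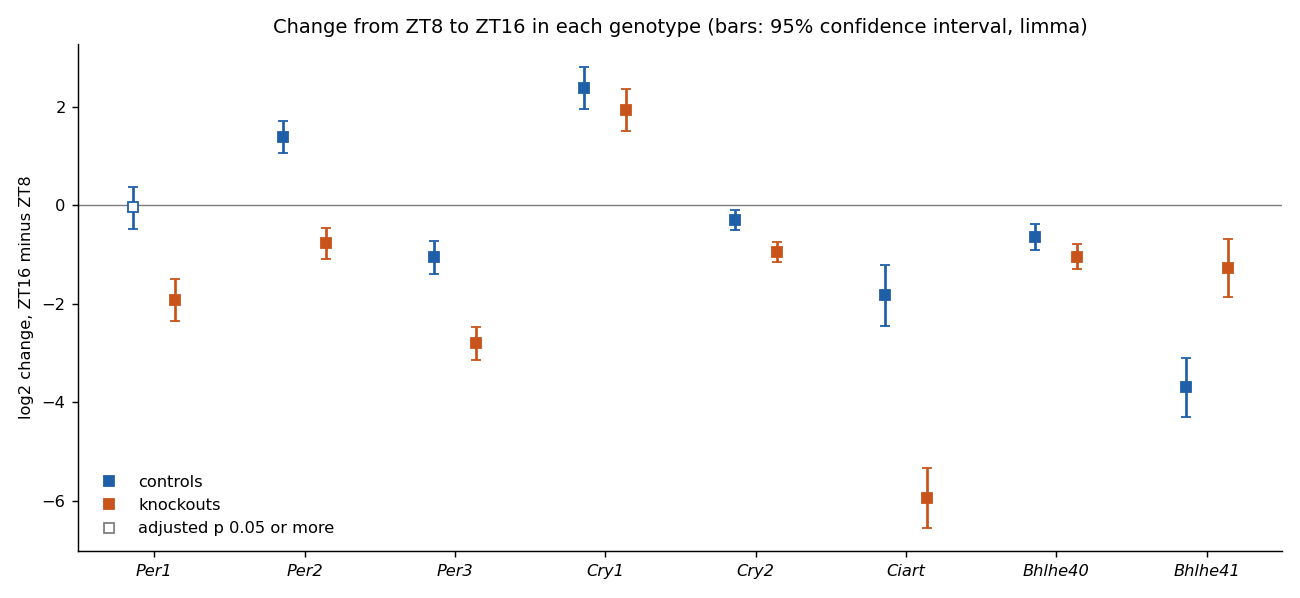
Log2 change from ZT8 to ZT16 (vertical axis) of each gene in controls (blue) and knockouts (orange), with limma 95% confidence intervals and open points where the adjusted p was 0.05 or more. Per2 lies at 1.39 in controls and −0.77 in knockouts, on opposite sides of 0, whereas Cry1 lies above 0 in both; the knockout value of Ciart and both values of Bhlhe41 end at signals below background.

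Other probes of the same genes lie elsewhere in the transcripts, and the exon each one reads was not determined here. Every one of the fitted probes of Per2, Per3, Cry1, Cry2 and Ciart was lower in knockouts at ZT16. The other Per2 probe, at chr1:93336538-93336597, was dim and gave −0.21, −0.52 and −0.95 at ZT8, ZT12 and ZT16, the later values called. A second Per3 probe, at chr4:150406022-150406081, gave −0.45, −1.25 and −2.00, and was above background in 0 of 6 ZT16 knockouts, so that the last of these is no measured size. Among the other Cry2 probes, the one at chr2:92251417-92251476 gave −0.34, −0.35 and −0.88, and the one at chr2:92265472-92265531 gave −0.30, −0.21 and −0.66, each called at ZT16 alone. For neither of these was the change of the effect between times called (F test adjusted p = 0.162 and 0.562), unlike the representative Cry2 probe.

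The other Cry1 probe, at chr10:84594731-84594790, gave −0.50, 0.18 and −0.92, with an adjusted p of 0.00309 at ZT16. The other Ciart probe, at chr3:95685193-95685252, gave −1.15 at ZT8 (adjusted p = 0.00713) and was above background in 0 of 6 knockouts at ZT12 and at ZT16. The third Per3 probe, at chr4:150385608-150385667, had an outlier spot on knockout ZT12 replicate 1 and was fitted with all probes on the other 35 arrays, a step added after seeing the data. It is brighter than the representative probe, with a median of 1.57 (1.06 to 1.89) in ZT8 controls and 0.61 (0.23 to 1.12) in ZT8 knockouts. It gave −0.93 ± 0.20 at ZT8 (adjusted p = 0.000489), −1.23 ± 0.21 at ZT12 and −2.08 ± 0.20 at ZT16, so the probes of Per3 disagree on a difference at ZT8. The other Per1 probe, at chr11:68919895-68919954, was above background on 5 arrays and was not fitted.

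**Figure D4:**
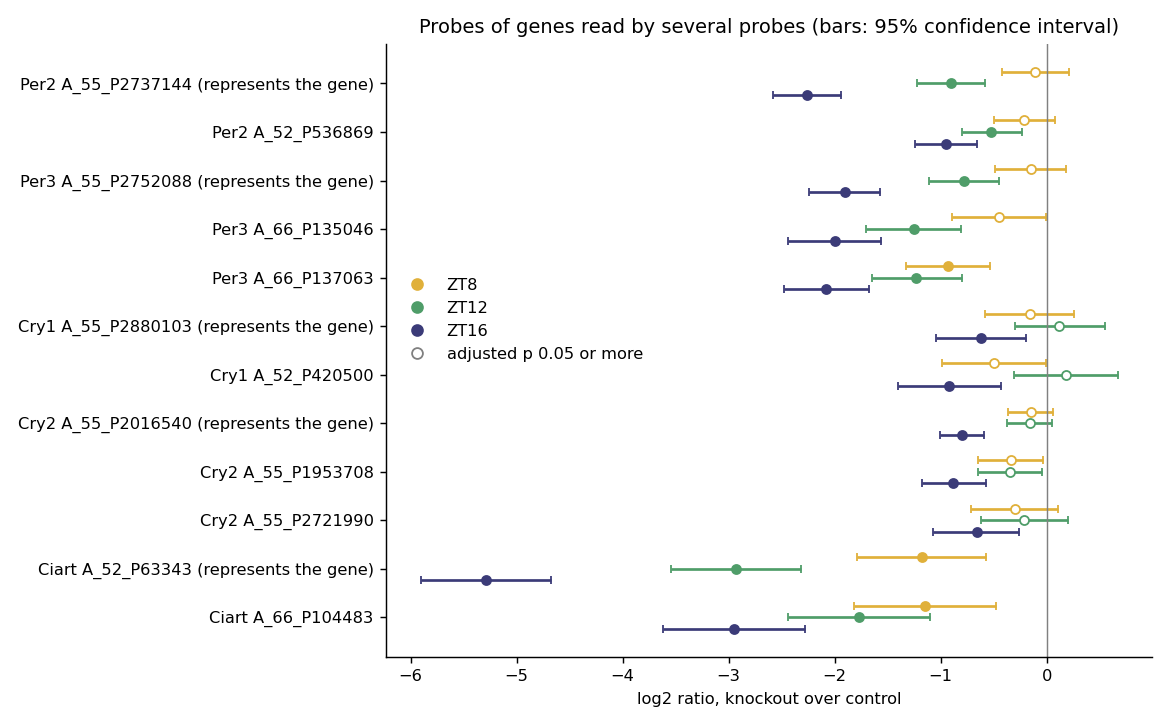
Log2 ratio of knockout over control (horizontal axis) for each fitted probe of the 5 genes with several (rows), at ZT8, ZT12 and ZT16, with 95% confidence intervals and filled points where the adjusted p was under 0.05. At ZT16 every probe lies below 0, and at ZT8 the third Per3 probe (A_66_P137063, −0.93) stands apart from the representative one (−0.15).

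The activators and the REV-ERB/ROR loop, which drives and restrains Arntl, form the other limb. Of 9 listed genes 7 were tested, without Npas2 and Rorb, and 4, 1 and 3 were called lower at ZT8, ZT12 and ZT16, with 0 called higher at any time (medians −0.43, −0.16 and 0.03). Over all genes, 18.7%, 22.6% and 20.0% were called lower and 16.7%, 19.6% and 19.9% higher at these times, and the counts of this and the following lists are to be read against those shares. Arntl, which encodes BMAL1, fell at ZT8 by 1.41 ± 0.33 (adjusted p = 0.00119), from a control range of −4.21 to −2.99 to a knockout range of −6.79 to −3.98. Only 5 of 6 controls and 2 of 6 knockouts were above background there, so this size is uncertain. It differed by 0.49 ± 0.33 at ZT12 and 0.48 ± 0.33 at ZT16, neither called. Clock fell at ZT8 by 0.70 ± 0.08 (adjusted p = 7.53e-08) and differed by 0.01 and 0.03 later. Nr1d1, the repressor REV-ERBα, was lower at ZT8 by 0.67 ± 0.25 (adjusted p = 0.0369), with a ratio of 0.61 ± 0.25 at ZT16 (adjusted p = 0.0531). Its partner Nr1d2 was lower at ZT16 by 0.70 ± 0.17 (adjusted p = 0.00171), with 0.36 ± 0.17 at ZT8 (adjusted p = 0.109). From ZT8 to ZT16 both ratios were called to change, by 1.29 ± 0.36 for Nr1d1 and −1.05 ± 0.24 for Nr1d2 (adjusted p = 0.0183 and 0.00476).

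Output genes are driven by E-boxes or D-boxes. Of 7 genes, 1 was called lower and 1 higher at ZT8, 5 lower at ZT12 and 6 lower at ZT16, with medians of 0.04, −0.72 and −1.32, where 18.7%, 22.6% and 20.0% of all genes were called lower. Wee1, a kinase that holds back cell division, had log2 ratios of −0.26 ± 0.18, −1.22 ± 0.18 and −2.44 ± 0.18 (adjusted p = 0.294, 3.49e-06 and 7.62e-12). Usp2, a deubiquitinase, had 0.04 ± 0.18, −0.88 ± 0.18 and −2.17 ± 0.18 (adjusted p = 0.885, 0.0003 and 1.1e-10). Tef, a D-box activator, had 0.25 ± 0.12, −0.32 ± 0.12 and −1.23 ± 0.12, the later values called. Nampt, the enzyme of NAD salvage, was higher in knockouts at ZT8 (0.52 ± 0.18, adjusted p = 0.0218) and lower at ZT16 (−1.16 ± 0.18, adjusted p = 4.72e-06).

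Other genes act on PER and CRY proteins or sit with them in the complex. Of 12 kinases and ubiquitin ligases, 2 were called higher and 1 lower at ZT8, 3 and 2 at ZT12, and 1 and 3 at ZT16, with medians of 0, −0.07 and −0.07, where 35.4%, 42.2% and 39.9% of all genes were called in either direction. Csnk1d, the kinase that phosphorylates PER, was higher at ZT12 by 0.27 ± 0.06 (adjusted p = 0.000856). Btrc, the ligase subunit that marks PER for degradation, was higher at ZT16 by 0.52 ± 0.10 (adjusted p = 0.000109). The Btrc means were −1.49 in knockouts against −1.80 in controls at ZT8, and −1.99 against −2.09 at ZT12. Prkaa1 and Prkaa2, the catalytic subunits of the AMP-activated kinase that destabilises CRY, were lower at ZT16 by 0.50 ± 0.08 and 0.45 ± 0.12 (adjusted p = 1.23e-05 and 0.00354). The Prkaa1 mean was also lower in knockouts earlier, at −0.27 against 0.05 in controls at ZT8 and −0.09 against 0.18 at ZT12. The Prkaa2 means were 3.07 in knockouts against 2.90 in controls at ZT8, and 2.94 against 3.10 at ZT12. Of 11 partners of the PER complex, 3, 5 and 5 were called higher and 1, 0 and 2 lower at the 3 times, where 16.7%, 19.6% and 19.9% of all genes were called higher. Among them Sin3a, a corepressor scaffold, was higher at ZT12 by 0.30 ± 0.07 and Ddx5, an RNA helicase, fell at ZT16 by 0.21 ± 0.07 (adjusted p = 0.000458 and 0.0168). Suv39h1, a histone methyltransferase, was lower at ZT16 by 0.26 ± 0.10 (adjusted p = 0.0316). Its means were 0.29 in knockouts against 0.57 in controls at ZT8, and 0.41 against 0.47 at ZT12.

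Genes of the systemic signals that act on Per1 and Per2 were followed as a list of 15, covering glucocorticoid, cAMP and temperature responses. At ZT8 6 were called higher and 3 lower, at ZT12 4 and 4, and at ZT16 5 and 7, with medians of 0.24, −0.07 and −0.24, where 35.4%, 42.2% and 39.9% of all genes were called in either direction. Fkbp5, a glucocorticoid receptor target, was at 4.86 (4.56 to 5.22) in ZT16 controls and 2.50 (1.48 to 2.86) in ZT16 knockouts. Its log2 ratio was 0.39 ± 0.25, −0.29 ± 0.25 and −2.45 ± 0.25 (adjusted p = 0.233, 0.358 and 3.07e-09). The heat shock genes Hsph1 and Hsp90aa1 were lower in knockouts at ZT16, by 0.75 ± 0.17 and 0.47 ± 0.13 (adjusted p = 0.000659 and 0.00353). Their means at ZT8 were 2.16 and 4.48 in knockouts, against 1.76 and 4.15 in controls. At ZT12 the means were 3.28 and 5.01 in knockouts, against 3.52 and 5.46 in controls. Cirbp, which is induced by cooling, was lower at ZT8 (−0.42 ± 0.14) and higher at ZT16 (0.84 ± 0.14, adjusted p = 1.1e-05). Whether these signals have a part in the Per1 and Per2 values was not tested.

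**Figure D5:**
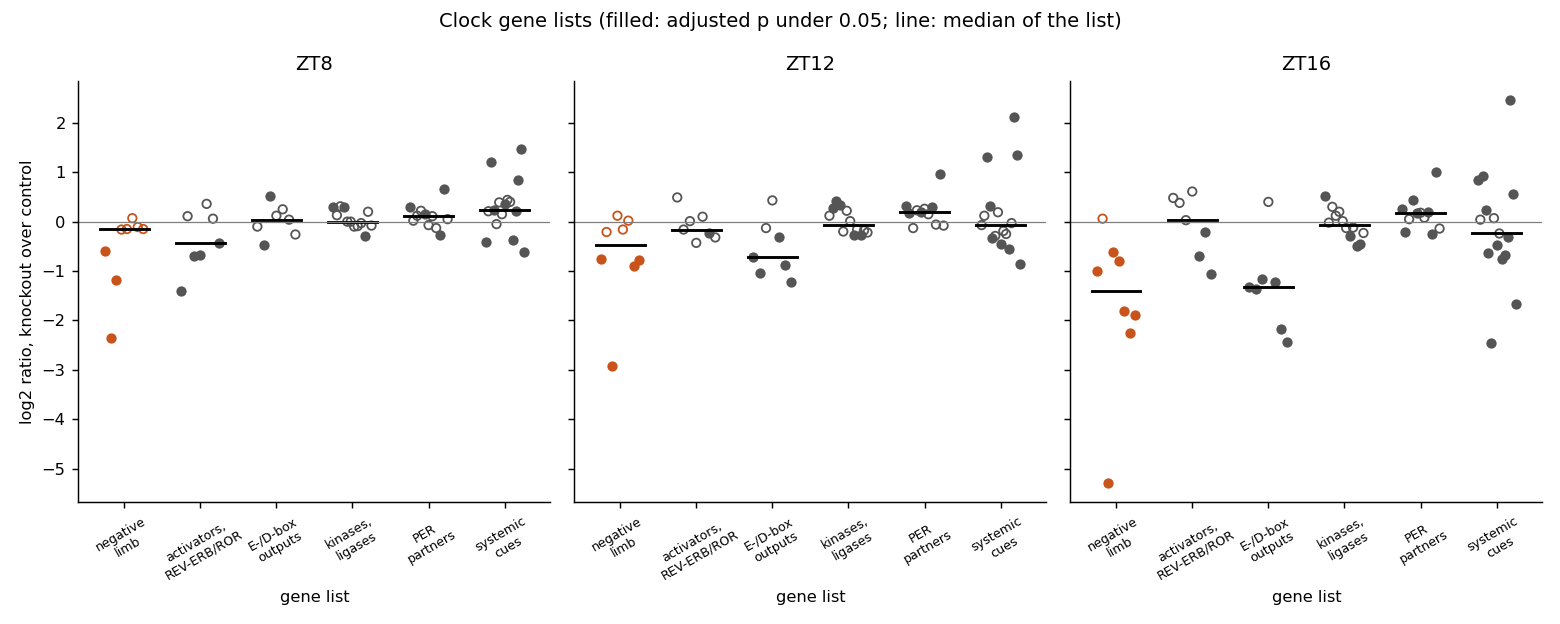
Log2 ratio of knockout over control (vertical axis) of each gene of the negative limb (orange) and of the 5 other lists (grey), at ZT8, ZT12 and ZT16, filled where the adjusted p was under 0.05, with the median of each list as a line. At ZT16 the medians are −1.40 for the negative limb and −1.32 for the outputs, against 0.03 for the activators and −0.07 for the kinases and ligases; the negative limb includes values below background for Ciart and Bhlhe41.

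The genes most like each member were ranked by Pearson's r over the 36 arrays with wash batch means removed, among the other 17898 or 17899 genes above background on every array, as a description of arrays that share genotype and time. Ciart was most like Wee1 (r = 0.96), Psd3 (0.919) and Cldn12 (0.918). Per3 was most like Tef (0.947), Wee1 (0.927) and Arl5b (0.917), and Per1 was most like Usp2 (0.836), Arl5b (0.831) and Tef (0.825). Per2 was most like Tk1 (0.938), Homer2 (0.926) and Gm31105 (0.921). Cry1 was most like Lonrf3 (0.913), Gm10228 (0.906) and Desi2 (0.904), and Cry2 most like BC058545 (0.913), Hif1a (0.901) and Arl5b (0.895). Bhlhe40 was most like AA209734 (0.932), Xylb (0.924) and Cdh2 (0.923), and Bhlhe41, whose values are mostly below background, most like Tbcel (0.901), Arsa (0.899) and Camk2g (0.898).

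Markers of the liver's cell types were read on the same arrays. Their counts called stand beside 16.7%, 19.6% and 19.9% of all genes called higher at ZT8, ZT12 and ZT16. The shares of all genes called lower were 18.7%, 22.6% and 20.0%. All 4 hepatocyte markers were above background on every array, as the tissue label requires, and 2 of 4 were lower in knockouts at each time. Their summed signal relative to the 75th percentile ranged from 3130 to 3860 in ZT16 controls and from 2550 to 2790 in ZT16 knockouts. All 4 macrophage markers were above background throughout, with 1, 3 and 2 higher in knockouts at ZT8, ZT12 and ZT16, and at ZT16 their sum ranged from 25.2 to 65.1 in controls and 50.7 to 117 in knockouts. Of the 4 endothelial markers, all above background throughout, 0, 4 and 3 were higher, and their ZT16 sum ranged from 24.3 to 36.1 and from 30.8 to 40.4. Of 5 stellate cell and fibroblast markers 1 was higher at ZT12 and 1 at ZT16, and of 4 bile duct markers 1 was higher at ZT16. Of 3 lymphocyte markers 1 was higher at each time, and 1, 2 and 1 were lower at ZT8, ZT12 and ZT16. Of 2 red cell markers 0, 1 and 1 were higher, and 1 was lower at each time. The part of cell makeup in the values of the negative limb was not tested.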

How the data were processed

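Liver RNA was measured on 36 one-colour Agilent SurePrint G3 Mouse GE v2 arrays, 200 ng labelled with Cy3 per the labels. Per the file headers, the spot intensity was extracted with Feature Extraction 10.10.1.1 and is background subtracted but carries no scaling across arrays. The deposited flags of each spot (0 or 1) mark outliers and signals above background. The authors' deposited table holds log2 values of 32801 probes, identical in distribution across columns; how it was made is not given in the sources used here, and it served as an alternative. The submitters' processing notes name limma.

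The log2 processed signal minus the 75th percentile of the array was averaged over the spots of a probe, outlier spots left out. Probes well above background on at least 6 arrays were kept (34771), 93 of them lacking a value on some array were dropped, and the brightest probe stood for a gene. RefSeq (GRCm38.p6) names matched 32994 probes and renamed 1535; probe positions are those of the files (mm9). limma 3.58.1 in R 4.3.3 fitted 6 group means plus wash batch (3 batches, each with all groups; 28 residual and 2.26 prior degrees of freedom), with Benjamini-Hochberg adjustment over 23054 genes and a threshold of 0.05. Exact permutation tests were two-sided. Arrays give no counts, so their number limits the precision. The labels do not say that the arrays come from separate mice, so p-values measure the spread between these samples. On simulated arrays with the real genes' means and spread, 50 genes of the 23054 were changed at each of 4 sizes at ZT16. The ZT16 comparison recovered 44% and 38% of genes changed by 0.5 and −0.5 log2 units. It recovered 78% of those changed by 1 and 98% of those changed by 2. In the data 39.9% of all genes were called at ZT16. The adjusted p is stricter where few genes change, so these recovered shares need not hold for the real comparison.

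All 8 members are named with all their probes; from each other list up to 4 genes with the smallest F-test p are named, and for each member the 3 most like genes. A gene that this rule names among the partners of the PER complex is not reported here. The members, lists and rules were chosen with earlier results of these data known. Motifs were searched by their letters on both strands; the glucocorticoid response element was not searched. Replicate numbers do not pair the samples: over 90 same-numbered pairs the correlation of deviations had a median of −0.00452 and 14 were over 0.1. No arrays were identical. Alternatives were background correction, normalization, the authors' table, the filter, wash batch, slide, the replicate number, array weights, the samples in the fit, the probe of a gene, and leaving out each array.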

Additional observations from a re-analysis of the deposited data

Results flagged for a closer look

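In 4 of the 48 groups of a gene, genotype and time, 1 sample lay further from the rest than Dixon's 95% limit for 6 samples, where chance gives about 2.4. Bhlhe40 in knockout ZT8 replicate 3 was at 2.05, against 2.81 to 3.13 in the other knockouts of that time. Cry1 in control ZT8 replicate 2 was at −3.37, against −4.17 to −3.90. Cry2 in knockout ZT16 replicate 5 was at 3.12, against 2.96 to 3.02. Bhlhe41 in knockout ZT12 replicate 1 was at −6.86, against −7.31 to −7.18, with no array of that group above background.

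The genotype effect was called to change between ZT8 and ZT16 for 5 of the 7 genes other than Bhlhe41 (9.75% of all genes). The change of the log2 ratio was −1.87 for Per1, −2.16 for Per2, −1.75 for Per3, −0.65 for Cry2 and −4.11 for Ciart. Bhlhe41 (2.41) was called as well, which makes 6 genes. It passed the filter through the ZT8 controls alone, so its call was built into its being tested. The sizes for Ciart and Bhlhe41 rest on signals below background and are not measured sizes.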

How the results depend on the processing

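Counts here include Bhlhe41, whose ZT8 difference was built into its being tested. The counts of members called lower in knockouts at ZT8, ZT12 and ZT16 (3, 4 and 7) stayed within 1.5 times under every alternative run, and no log2 ratio that was called changed sign. The count for the change of the effect from ZT8 to ZT12 (2 genes) was 0 with normexp, 1 with no filter, with slide as a fixed block and with the mean of all probes, and 1 to 3 with 1 array left out; it was 1 without control replicates 1, 5 or 6 or knockout replicates 1, 5 or 6 of ZT8, and without control replicates 2, 4 or 6 or knockout replicates 1, 5 or 6 of ZT12. For ZT12 to ZT16 it was 3 with normexp (5 as reported). Between ZT12 and ZT16 in controls it was 2 with the replicate block and with the mean of all probes, and 2 without control ZT16 replicate 1 or control ZT12 replicate 3 (1 as reported, 1 to 2 over all arrays left out); the replicate block changed no other count of calls. Between ZT8 and ZT12 in knockouts it was 2 when only the groups compared were fitted (6 as reported), which leaves fewer samples for the spread. That setting gives no F test. Of single log2 ratios, 381 of those under other settings kept their call, Bhlhe40 from ZT8 to ZT16 was called with array weights (−0.45, adjusted p = 0.033) and Bhlhe41 at ZT12 with normexp (−0.22), below background. Within a wash batch, 85 values moved by less than the largest SD of any group of that gene, a wide limit, and 11 by more. The consensus correlation within slides was 0.0263. The cause of these changes was not tested. Dim signals limit the sizes for Ciart and Bhlhe41.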
